A study of Rattus norvegicus with 9 samples.

Results

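The axon regeneration-associated genes examined here were Atf3, Jun, Sox11, Klf6, Gap43, Basp1, Stmn2 and Sprr1a. They were picked by symbol from the deposited gene table, where each symbol stands on 1 row, so that they are 8 of 30507 rows. Their levels were followed in spinal cord segments around the lesion (T9 to T11) of female wild-type Sprague-Dawley rats at 35 dpi. The Sham group was labelled as untreated and, by the study's methods, had a laminectomy only. The SCI group had a contusion at thoracic level 10 and carried an electrode plug with no electrode. The SCI + SCS group had the same contusion and received high-frequency spinal cord stimulation (HF-SCS) through an implanted epidural electrode. Each group held 3 libraries from 3 rats, and a group with an electrode but no current was not analysed here, so that electrode and current cannot be told apart.

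Axon regeneration-associated genes are best known from dorsal root ganglion neurons with a cut peripheral axon, where transcription factors and effectors of axon growth are switched on together. Atf3, Jun, Sox11 and Klf6 encode transcription factors of that response. Atf3 and Jun proteins pair with each other and with other AP-1 proteins. Gap43 and Basp1 encode related membrane proteins of the growth cone, Stmn2 encodes a neuronal protein that binds tubulin, and Sprr1a encodes a small proline-rich protein of the epidermis that axotomised neurons also make. Neurons of the central nervous system are known to mount this response weakly. Gap43, Basp1 and Stmn2 are best known from neurons. Atf3, Jun and Klf6 are also made by glia, immune cells and fibroblasts.

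Between 62844376 and 88358570 counts per library fell on genes, and a level of 3 counts corresponded to 0.034 to 0.0477 CPM (counts scaled to a common library size with TMM factors). Neuron markers were present in every library, as the label of spinal cord requires. The summed level of 8 neuron markers (Snap25, Syt1, Rbfox3, Syp, Eno2, Elavl3, Elavl4 and Map2) was 2428 to 4193 CPM in Sham cords, 511 to 1121 CPM in SCI cords and 1190 to 1768 CPM in SCI + SCS cords. All 8 fell between Sham and SCI cords. Motor neuron markers summed to 35.0 to 96.1 CPM in Sham cords, 2.59 to 13.3 CPM in SCI cords and 12.6 to 21.9 CPM in SCI + SCS cords, and sensory neuron markers to 172 to 817 CPM, 48.3 to 132 CPM and 122 to 194 CPM, respectively. Microglia and macrophage markers summed to 185 to 312 CPM, 765 to 1005 CPM and 695 to 855 CPM in the same order, with 4 of 6 higher in SCI cords than under Sham conditions. Fibroblast and meningeal markers summed to 408 to 1914 CPM, 3346 to 5052 CPM and 2058 to 3498 CPM, with 6 of 6 higher in SCI cords. Schwann cell markers, of peripheral glia that are also known to make Jun and Atf3 after injury, summed to 3443 to 5434 CPM, 6630 to 9996 CPM and 5172 to 11314 CPM, with 4 of 8 higher in SCI cords. Over all rows tested, 24.3% were higher and 25.0% lower in SCI cords at the same threshold (edgeR adjusted p under 0.05). In tissue of this kind, fewer cells of a type and less RNA per cell cannot be told apart. Sham replicate 2 stood apart with 817 CPM of sensory neuron markers, against 437 and 172 CPM in the other Sham libraries, including 55.3 CPM of Scn10a, a sodium channel gene of sensory neurons, against 0.157 and 0.851 CPM. Without it, 5 rather than 6 of the regeneration-associated genes were called between SCI and Sham, and 2 rather than 3 between SCI + SCS and Sham. SCI replicates 1 and 3 stood apart with 3257 and 914 CPM of skeletal muscle markers, against 20.3 CPM in SCI replicate 2 and 29.5 to 109 CPM in the other groups. Removing the rows of the muscle and adipocyte marker lists before normalization left the numbers of regeneration-associated genes called below at 6, 0 and 3. Only these marker rows were taken out and the counts of the other genes stayed as they were. This removal therefore cannot show what other transcripts of such tissue did to the calls, which was not tested.

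**Figure D1:**
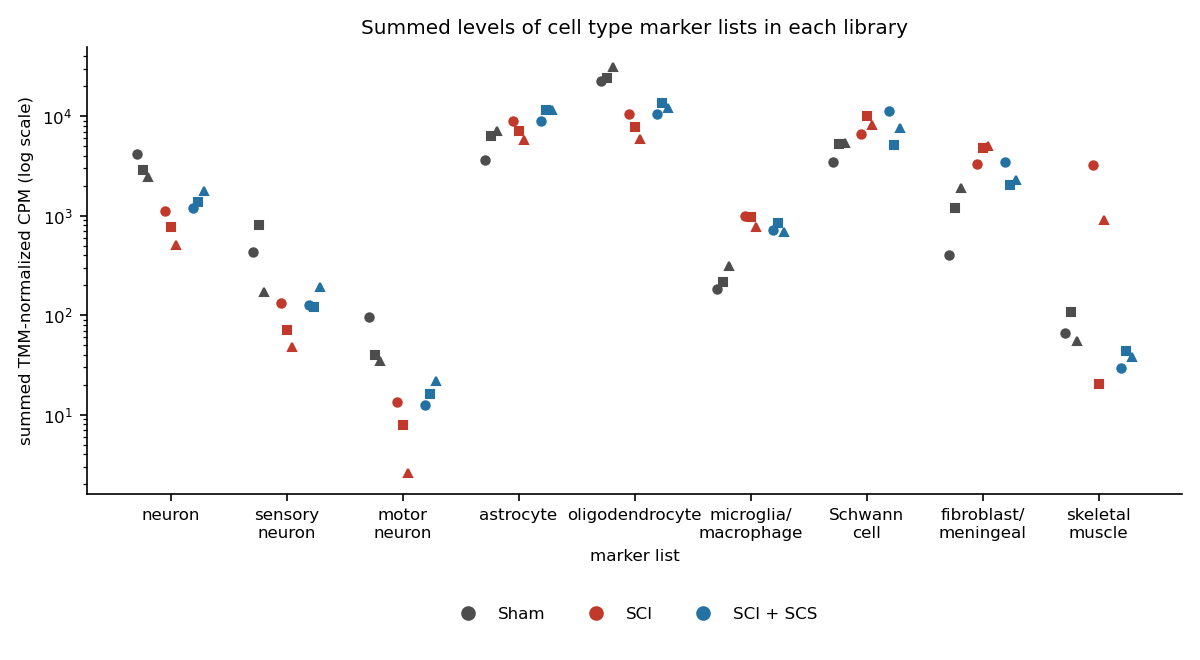
Summed TMM-normalized CPM of marker lists (log scale) in each library, with circles, squares and triangles for replicates 1, 2 and 3 and colours for the groups. Neuron markers lie at 2428 to 4193 CPM in Sham cords and 511 to 1121 CPM in SCI cords, while fibroblast and meningeal markers lie at 408 to 1914 CPM and 3346 to 5052 CPM.

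The levels of the 8 genes in single libraries divided them by direction. Atf3 (ENSRNOG00000003745, chr13:102751321-102764631, minus strand, mRatBN7.2 by the submitters' processing notes, as for all positions of genes here) had 3.27, 4.32 and 6.64 CPM in the Sham libraries, 43.7, 43.7 and 55.6 CPM in the SCI libraries, and 35.3, 29.7 and 26.9 CPM in the SCI + SCS libraries. These 3 groups of values did not overlap, with the SCI + SCS libraries between the other 2 groups. Jun (ENSRNOG00000026293, chr5:109893145-109897656, minus strand) had 78.0, 91.6 and 91.7 CPM in Sham cords, 161, 164 and 193 CPM in SCI cords, and 161, 153 and 126 CPM in SCI + SCS cords. Both injured groups lay above every Sham library, and the highest SCI + SCS library was just under the lowest SCI library. Klf6 (ENSRNOG00000016885, chr17:64531463-64588570, minus strand) had 26.2, 35.0 and 40.5 CPM in Sham cords, 57.7, 63.8 and 71.0 CPM in SCI cords, and 54.7, 44.2 and 47.1 CPM in SCI + SCS cords. Again the SCI + SCS libraries lay between the other 2 groups.

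Gap43 (ENSRNOG00000001528, chr11:58376371-58470045, plus strand) had 117, 111 and 75.7 CPM in the Sham libraries, 72.4, 58.1 and 59.4 CPM in the SCI libraries, and 84.7, 91.2 and 94.8 CPM in the SCI + SCS libraries. The SCI libraries were the lowest of the 9, and the SCI + SCS libraries lay within the range of the Sham libraries. Basp1 (ENSRNOG00000066065, chr2:75816122-75864043, minus strand) had 194, 146 and 114 CPM in Sham cords, 89.6, 83.7 and 57.7 CPM in SCI cords, and 95.0, 112 and 120 CPM in SCI + SCS cords, whose highest library overlapped the Sham range. Stmn2 (ENSRNOG00000011705, chr2:93204692-93252011, minus strand) had 589, 475 and 288 CPM in Sham cords, 192, 111 and 79.9 CPM in SCI cords, and 172, 181 and 245 CPM in SCI + SCS cords. Its SCI and SCI + SCS libraries overlapped, and all of them lay under the lowest Sham library. For all 3 genes Sham replicate 3 was the lowest of its group.

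The remaining genes were at the edge of detection. Sox11 (ENSRNOG00000030034, chr6:44008340-44010354, minus strand) had 43, 34 and 26 counts in the Sham libraries, 28, 13 and 17 counts in the SCI libraries, and 21, 21 and 19 counts in the SCI + SCS libraries. That is 0.453 ± 0.196 CPM, 0.262 ± 0.0864 CPM and 0.297 ± 0.0017 CPM, respectively (mean ± SD, n = 3). Sprr1a (ENSRNOG00000024028, chr2:178055096-178057063, minus strand) had 0 counts in all Sham libraries, 20, 18 and 0 counts in the SCI libraries, and 0, 8 and 0 counts in the SCI + SCS libraries. A count of 0 leaves room for a level of up to 0.034 to 0.0477 CPM, depending on the library.

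**Figure D2:**
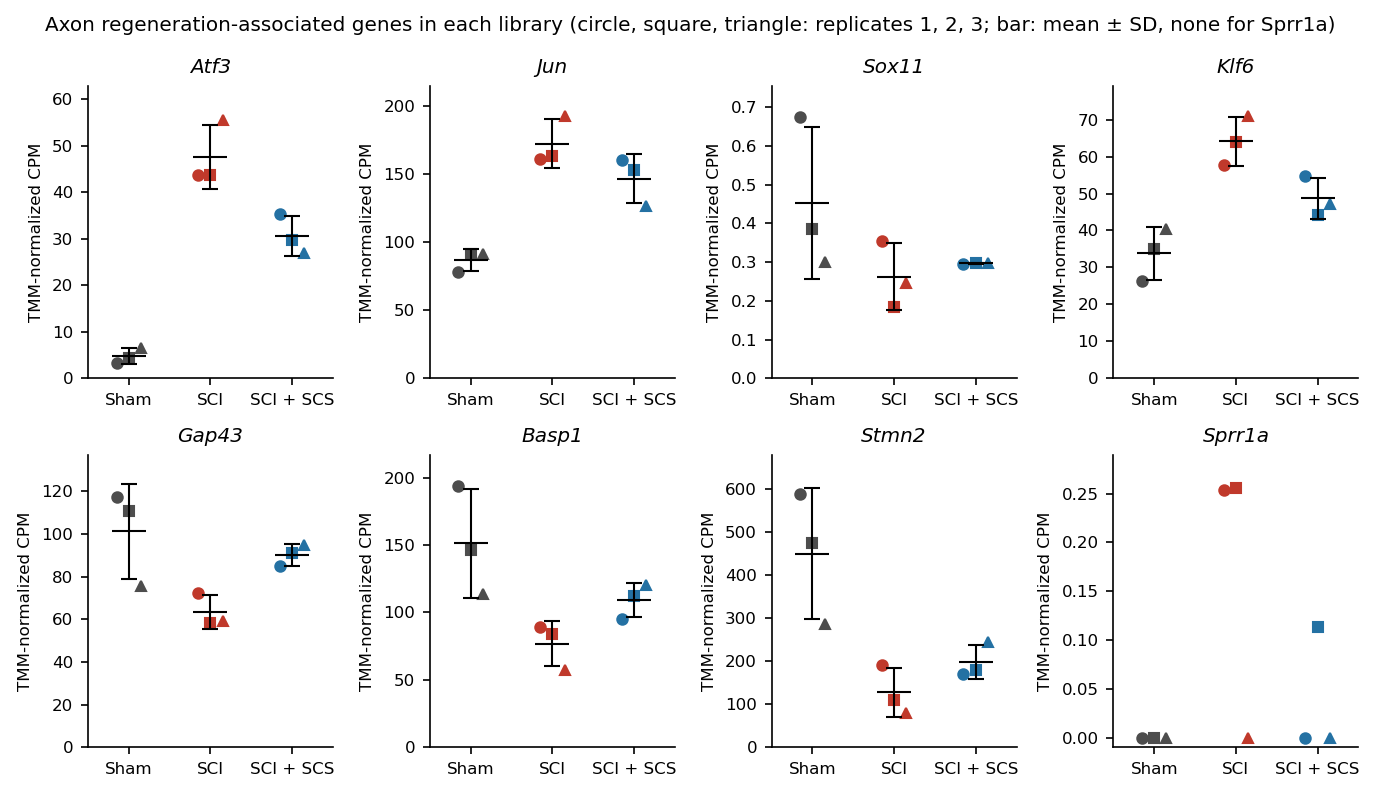
TMM-normalized CPM (linear axes) of the 8 genes in each of the 9 libraries, with circles, squares and triangles for replicates 1, 2 and 3 and bars for the mean ± SD (n = 3; none for Sprr1a). Atf3 rises from 3.27 to 6.64 CPM in Sham libraries to 43.7 to 55.6 CPM in SCI libraries, while Stmn2 is at 288 to 589 CPM in Sham libraries and 79.9 to 192 CPM in SCI libraries.

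RefSeq promoter windows (GRCr8, 250 bases before to 50 after the start) were at hand for Sprr1a, Klf6, Basp1 and Sox11. Sprr1a, Klf6 and Basp1 are shown as the genes that were nearly silent, that rose and that fell in SCI cords. Each is written 5′ to 3′ on the strand of the gene, all minus, at chr2:180752576-180752875 for Sprr1a, chr17:69458429-69458728 for Klf6 and chr2:77594248-77594547 for Basp1. Capitals mark matches to the motifs searched on both strands, which were TGANTCA (AP-1, the Jun family), TGACGTCA (CRE, bound by ATF proteins), TGACGCAA (ATF-C/EBP), ACAAAG and ACAATG (SOX) and CCCCACCC (KLF).
Sprr1a: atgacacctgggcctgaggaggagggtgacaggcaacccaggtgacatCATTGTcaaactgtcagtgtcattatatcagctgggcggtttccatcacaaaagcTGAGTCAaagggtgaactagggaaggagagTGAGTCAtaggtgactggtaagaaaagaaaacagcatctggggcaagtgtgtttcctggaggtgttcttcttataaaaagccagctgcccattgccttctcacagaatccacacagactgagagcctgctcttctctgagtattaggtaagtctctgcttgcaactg
Klf6: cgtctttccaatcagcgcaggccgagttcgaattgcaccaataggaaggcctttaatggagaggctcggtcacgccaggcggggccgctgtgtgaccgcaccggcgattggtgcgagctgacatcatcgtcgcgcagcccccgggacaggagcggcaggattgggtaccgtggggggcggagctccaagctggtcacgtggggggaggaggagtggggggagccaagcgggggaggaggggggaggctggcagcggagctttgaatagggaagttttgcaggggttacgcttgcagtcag
Basp1: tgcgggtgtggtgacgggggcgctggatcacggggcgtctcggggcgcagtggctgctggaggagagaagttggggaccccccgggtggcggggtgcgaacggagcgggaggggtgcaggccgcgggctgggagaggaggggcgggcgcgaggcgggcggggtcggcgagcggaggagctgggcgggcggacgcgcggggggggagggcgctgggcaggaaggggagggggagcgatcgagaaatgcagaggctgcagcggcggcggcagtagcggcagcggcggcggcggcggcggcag
The Sprr1a window held 2 AP-1 matches, TGAGTCA at positions -147 and -117 relative to the start, and 1 SOX match on the other strand at position -202. The windows of Klf6, Basp1 and Sox11 held no match to any of these motifs. Of 33469 RefSeq promoters, 7.33% held the AP-1 motif, 29.1% a SOX motif, 9.46% the KLF motif, 1.83% the CRE and 0.496% the ATF-C/EBP motif. The windows also differed in base composition, with a GC content of 48.3% and 1 CpG for Sprr1a, 64.7% and 23 CpG for Klf6, 78.3% and 40 CpG for Basp1, and 58.0% and 20 CpG for Sox11, against a median GC content of 51.7% over all promoters.

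SCI was first compared with Sham to ask how the regeneration-associated genes stood 35 days after contusion. The transcription factors Atf3, Jun and Klf6 rose, and the growth cone and tubulin-binding genes Gap43, Basp1 and Stmn2 fell. Rose and fell mean an adjusted p under 0.05 in the quasi-likelihood test of edgeR, after Benjamini-Hochberg adjustment over all rows tested. Of the 8 genes, 7 passed the filter on low counts and were tested, 3 rose, 3 fell and Sox11 did not pass. Over all 17822 rows tested, 24.3% rose and 25.0% fell, so that calls divided about evenly between the directions, as they did among the 7 genes. The median log2FC of the 7 genes was -0.70, beside 0.02 for all rows tested.

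Atf3 rose 9.91-fold in SCI cords (log2FC 3.31, SE 0.27, edgeR adjusted p = 0.00109) and ranked 262 from the top among all rows tested by log2FC. Jun rose 1.96-fold (log2FC 0.97, SE 0.12, edgeR adjusted p = 0.00191) and Klf6 1.87-fold (log2FC 0.90, SE 0.17, edgeR adjusted p = 0.00615). Stmn2 fell 3.58-fold (log2FC -1.84, SE 0.40, edgeR adjusted p = 0.0102), from 451 ± 152 CPM to 128 ± 58.0 CPM (mean ± SD, n = 3). Basp1 fell 1.99-fold (log2FC -0.99, SE 0.25, edgeR adjusted p = 0.0174) and Gap43 1.62-fold (log2FC -0.70, SE 0.19, edgeR adjusted p = 0.024). Of these, 2 genes, Atf3 and Stmn2, also passed |log2FC|>1, the study's threshold for a differentially expressed gene, as did 26.9% of all rows tested.

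The Gap43 call was the least firm of the 6. Its edgeR adjusted p was 0.0627 without Sham replicate 1 (log2FC -0.58), 0.0776 without Sham replicate 2 (-0.63), 0.076 without SCI replicate 2 (-0.65) and 0.076 without SCI replicate 3 (-0.66). Sox11, with a log2FC of -0.80 and SE of 0.48, did not pass (edgeR adjusted p = 0.205), and no difference was detectable at 13 to 43 counts per library. Sprr1a was removed by the filter on low counts, and DESeq2, which did test it, gave an adjusted p of 0.0366 on the counts of SCI replicates 1 and 2. With no filter, edgeR's adjusted p for Sprr1a was 0.0774. It was 0.0961, 0.12 and 0.103 without Sham replicates 1, 2 and 3 and 0.0211 without SCI replicate 3, which had 0 counts, and limma gave 0.117 with no filter. The fall of Gap43, Basp1 and Stmn2 went with the lower sum of neuron markers given above. It also went with a lower sum of oligodendrocyte markers, 5964 to 10634 CPM in SCI against 22635 to 31057 CPM in Sham cords. The rise of Atf3, Jun and Klf6 went with the higher sums of macrophage, fibroblast and Schwann cell markers. Endothelial markers (346 to 378 against 275 to 302 CPM) and adipocyte markers (23.7 to 34.8 against 0.564 to 0.851 CPM) also summed to more. Summed astrocyte markers overlapped. The part of these markers in the results was not tested.

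**Figure D3:**
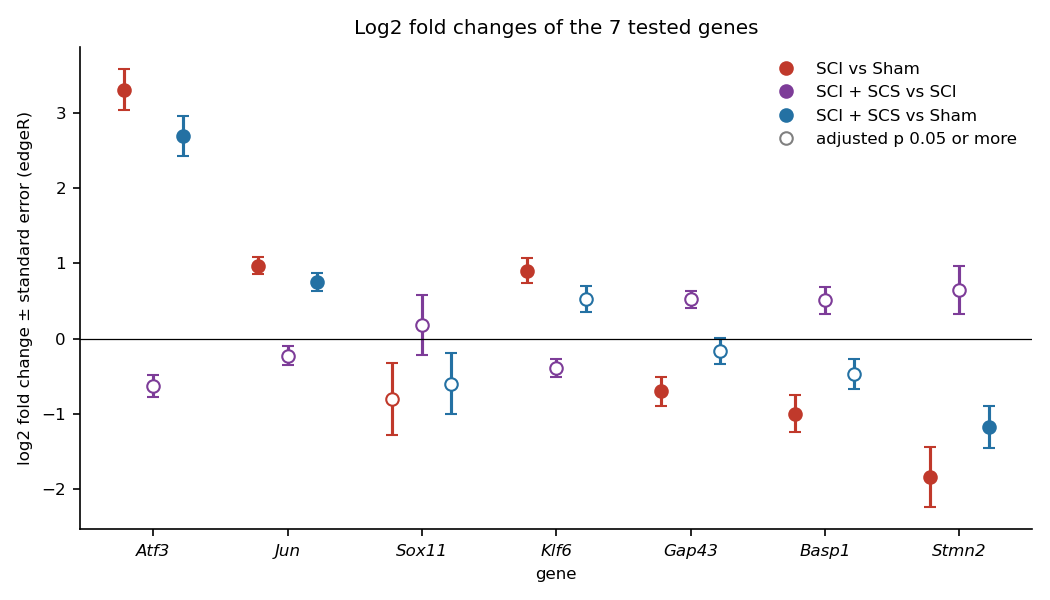
Log2 fold change ± standard error of the 7 tested genes in the 3 comparisons, with filled points for an adjusted p under 0.05 and open points otherwise (edgeR, 3 libraries per group). Atf3, Jun and Klf6 are above 0 and Gap43, Basp1 and Stmn2 below 0 for SCI against Sham, and every point of SCI + SCS against SCI is open. The comparisons share libraries, so their points are not independent.

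SCI + SCS was next compared with SCI to ask whether stimulated cords differed from unstimulated injured cords. Atf3, Jun and Klf6 were lower and Gap43, Basp1 and Stmn2 higher in the means of the SCI + SCS group, but none of the 7 tested genes passed edgeR's quasi-likelihood test after Benjamini-Hochberg adjustment. At this threshold 1 of 17663 rows was called, or 0.00566%. With edgeR's p left unadjusted, 4 of the 7 were under 0.05 (Atf3, Klf6, Gap43 and Basp1), beside 24.2% of all rows tested. With DESeq2, 3 of the 7 passed after adjustment (Atf3, Klf6 and Gap43), beside 16.1% of the rows to which it gave an adjusted p. Sox11 received no adjusted p from DESeq2.

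Atf3 averaged 47.6 ± 6.86 CPM in SCI cords and 30.6 ± 4.28 CPM in SCI + SCS cords (log2FC -0.63, SE 0.14, n = 3 each). Its adjusted p was 0.0866 with edgeR and 0.00248 with DESeq2, and ranged from 0.00248 to 0.302 over 17 alternatives. Klf6 averaged 64.2 ± 6.66 CPM and 48.7 ± 5.44 CPM, respectively (log2FC -0.39, SE 0.12), with an adjusted p of 0.119 in edgeR and 0.0317 in DESeq2, and 0.0317 to 0.342 over the alternatives. Jun averaged 173 ± 17.9 CPM and 147 ± 18.0 CPM, and its log2FC of -0.22 (SE 0.12) did not pass with either tool (edgeR adjusted p = 0.312). In all 3 genes each SCI + SCS library was lower than each SCI library, as for 13.9% of all rows tested.

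Gap43 averaged 63.3 ± 7.91 CPM in SCI cords and 90.3 ± 5.11 CPM in SCI + SCS cords (log2FC 0.52, SE 0.11, n = 3 each). Its adjusted p was 0.0833 with edgeR and 0.00233 with DESeq2, and ranged from 0.00233 to 0.302 over the alternatives. Basp1 averaged 77.0 ± 17.0 CPM and 109 ± 13.0 CPM, respectively (log2FC 0.51, SE 0.18, edgeR adjusted p = 0.149). For Gap43 and Basp1 each SCI + SCS library was higher than each SCI library, as for 15.6% of all rows tested. Stmn2 averaged 128 ± 58.0 CPM and 199 ± 39.8 CPM with overlapping libraries (log2FC 0.65, SE 0.32, edgeR adjusted p = 0.26). In FPKM, however, the Stmn2 libraries did not overlap (36.3 to 74.9 in SCI and 76.6 to 109 in SCI + SCS cords). Sox11 had a log2FC of 0.18 (SE 0.40), less than its standard error. The summed neuron markers were higher in each SCI + SCS library than in each SCI library, 1190 to 1768 CPM against 511 to 1121 CPM. By log2FC, 6 of 6 astrocyte and 6 of 6 oligodendrocyte markers were also higher. Lower were 6 of 6 fibroblast and meningeal markers and 5 of 6 microglia and macrophage markers. The sums of these 4 lists overlapped, and none of their genes passed edgeR's test after adjustment. The part of all these markers in the levels of the 7 genes was not tested.

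The comparison of SCI + SCS with Sham asked how stimulated cords stood against Sham cords. It shares its Sham libraries with the first comparison, so that the values below are not independent of those above. Atf3 and Jun rose and Stmn2 fell, so that 2 of 7 tested genes rose and 1 of 7 fell, beside 16.2% of all rows that rose and 16.2% that fell. Atf3 was 6.47-fold higher (log2FC 2.69, SE 0.27, edgeR adjusted p = 0.00338) and Jun 1.69-fold higher (log2FC 0.76, SE 0.12, edgeR adjusted p = 0.00787) than in Sham cords. Stmn2 was 2.26-fold lower (log2FC -1.18, SE 0.28, edgeR adjusted p = 0.0233). Klf6 had a log2FC of 0.53 (SE 0.17, edgeR adjusted p = 0.055) and passed in 4 of 17 alternatives, DESeq2 among them (adjusted p = 0.0256). Basp1 had a log2FC of -0.47 (SE 0.20, edgeR adjusted p = 0.12). Gap43 had a log2FC of -0.16 (SE 0.17, edgeR adjusted p = 0.487) and Sox11 of -0.60 (SE 0.41, edgeR adjusted p = 0.287). The median log2FC of the 7 genes was -0.16, beside 0.01 for all rows tested.

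Atf3 and Jun kept their calls when each library was left out in turn. The Stmn2 call was lost without Sham replicate 2 (log2FC -1.14, edgeR adjusted p = 0.0752), SCI + SCS replicate 1 (-1.08, 0.0901) or SCI + SCS replicate 2 (-1.12, 0.0817). Without Sham replicate 3, the Sham library with the highest Atf3 and Klf6 and the lowest Gap43, Basp1 and Stmn2, 6 genes passed. Klf6 then rose (log2FC 0.67, edgeR adjusted p = 0.0247), and Gap43 (-0.34, edgeR adjusted p = 0.0315) and Basp1 (-0.64, edgeR adjusted p = 0.0275) fell. Sham replicate 3 also had the lowest sums of its group for neuron (2428 CPM), motor neuron (35.0 CPM) and sensory neuron markers (172 CPM). It had the highest sums for macrophage (312 CPM), fibroblast and meningeal (1914 CPM) and Schwann cell markers (5434 CPM). Astrocyte (7190 CPM) and oligodendrocyte markers (31057 CPM) were highest there too. The part of these markers was not tested.

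Because the neuron markers differed between the groups, the counts of each gene were also expressed as a percentage of the summed counts of the 8 neuron markers in the same library. Stmn2 had 14.1, 16.5 and 11.9% in the Sham libraries, 17.1, 14.4 and 15.6% in the SCI libraries, and 14.5, 13.0 and 13.8% in the SCI + SCS libraries. All 3 groups overlapped, with a mean ± SD of 14.1 ± 2.31%, 15.7 ± 1.37% and 13.8 ± 0.71% (n = 3 each). The exact two-sided permutation p was 0.4 for SCI against Sham, 0.2 for SCI + SCS against SCI and 0.8 for SCI + SCS against Sham, where 10 splits of 3 against 3 cannot give a p under 0.1. On the CPM scale, by contrast, the SCI and Sham libraries of Stmn2 did not overlap. The overlap of the ratios depended on the markers and libraries used. Without Sham replicate 2, both remaining Sham ratios lay under the SCI ratios. As a percentage of Rbfox3, Elavl3 and Elavl4 alone, Stmn2 had 309, 297 and 264% in the Sham libraries, 401, 315 and 349% in the SCI libraries, and 301, 265 and 280% in the SCI + SCS libraries. The SCI libraries were then above all others.

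Gap43 and Basp1 turned from lower to higher in SCI cords on this scale. The neuron markers had a median log2FC of -2.26 for SCI against Sham, beside -0.70 for Gap43 and -0.99 for Basp1. A gene that fell less than the markers, or did not change, is higher on this scale by construction. The turn therefore does not show whether transcript per neuron changed, which was not tested. Gap43 was 2.79, 3.83 and 3.12% of the neuron marker counts in the Sham libraries, 6.45, 7.55 and 11.6% in the SCI libraries, and 7.12, 6.58 and 5.36% in the SCI + SCS libraries. Basp1 was 4.62, 5.06 and 4.69% in the Sham libraries, 7.99, 10.9 and 11.3% in the SCI libraries, and 7.99, 8.11 and 6.81% in the SCI + SCS libraries. For both genes the injured groups lay above the Sham libraries and overlapped each other. Relative to Sham, the ratio of Gap43 was 2.63-fold and that of Basp1 2.10-fold in SCI cords.

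Atf3, Jun and Klf6 were farther from the Sham level on this scale than on the CPM scale. The divisor was lower in both injured groups, which alone raises the ratios. Atf3 was 0.167 ± 0.0988% of the neuron marker counts in Sham cords, 6.81 ± 3.62% in SCI cords and 2.21 ± 0.725% in SCI + SCS cords (mean ± SD, n = 3). Jun was 2.94 ± 0.979%, 24.5 ± 12.05% and 10.6 ± 3.20%, and Klf6 1.17 ± 0.522%, 9.11 ± 4.43% and 3.48 ± 1.002%, respectively. For Atf3, Jun and Klf6 none of the 3 groups overlapped with another. Sox11 was 0.0139 ± 0.00193% in Sham cords, 0.0346 ± 0.0123% in SCI cords and 0.021 ± 0.00399% in SCI + SCS cords, and both injured groups lay above the Sham libraries. Its direction thus turned too, from a log2FC of -0.80 for SCI and -0.60 for SCI + SCS against Sham, neither of which passed. The medians of the neuron markers were lower, at -2.26 and -1.33, respectively, so that the ratio is again higher by construction. The cause of this turn was not tested.

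In all, 6 of 7 genes were higher in every SCI library than in every Sham library on this scale, each with an exact permutation p of 0.1 (n = 3 against 3), the smallest possible. Over all rows tested, 84.6% did not overlap in one direction or the other, so that 6 of 7 was close to the background. That background holds both directions, and the share of rows that were higher was not counted separately. The same 6 were higher in every SCI + SCS library than in every Sham library, where 75.0% of all rows did not overlap. Between the SCI + SCS and SCI groups, 3 of 7 (Atf3, Jun and Klf6) were lower without overlap, beside 52.7% of all rows. These numbers depended on the markers and libraries used. With Rbfox3, Elavl3 and Elavl4 as the only markers they were 7 for SCI against Sham, 5 for SCI + SCS against Sham and 7 for SCI + SCS against SCI, beside 86.5%, 70.3% and 69.1% of all rows, respectively. Without Sham replicate 2 the first was 7, and without SCI + SCS replicate 1, SCI replicate 1 or SCI replicate 2 the last was 5. The ratio also assumes nothing about which cells hold the transcripts. Atf3, Jun and Klf6 are not restricted to neurons, and the cells that held Gap43 and Basp1 were not determined.

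**Figure D4:**
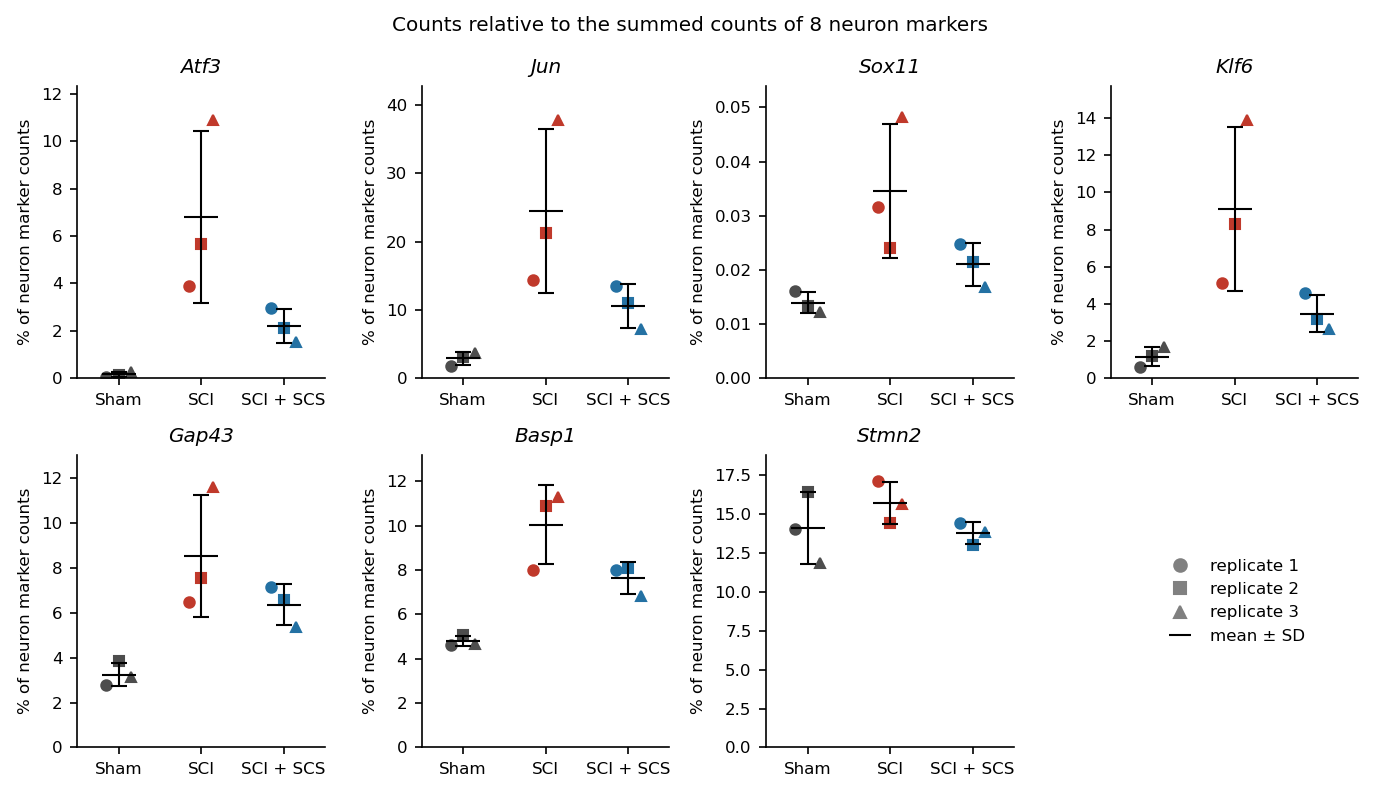
Counts of 7 genes as a percentage of the summed counts of 8 neuron markers in each library (linear axes), with circles, squares and triangles for replicates 1, 2 and 3 and bars for the mean ± SD (n = 3). Stmn2 overlaps in all groups (14.1 ± 2.31% in Sham, 15.7 ± 1.37% in SCI), while Gap43 lies at 2.79 to 3.83% in Sham and 6.45 to 11.6% in SCI libraries.

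The order of the genes per length was read from the deposited FPKM. In Sham cords it ran from Stmn2 (195 ± 64.7 FPKM, mean ± SD, n = 3) to Basp1 (59.2 ± 15.1 FPKM), Gap43 (54.7 ± 12.1 FPKM), Jun (15.5 ± 1.66 FPKM), Klf6 (6.64 ± 1.46 FPKM), Atf3 (2.01 ± 0.729 FPKM) and Sox11 (0.178 ± 0.0745 FPKM), with Sprr1a listed at 0. Basp1 and Gap43 overlapped, and the other neighbours did not. In SCI cords Stmn2 (53.9 ± 19.5 FPKM) was still first, but Gap43 (33.9 ± 1.13 FPKM), Jun (30.7 ± 5.09 FPKM) and Basp1 (29.9 ± 5.59 FPKM) overlapped in order, so that Jun stood among the growth cone genes. Atf3 (20.2 ± 4.04 FPKM) overlapped with Basp1 and was now above Klf6 (12.6 ± 2.23 FPKM). Sprr1a (0.149 ± 0.13 FPKM) and Sox11 (0.0982 ± 0.0261 FPKM) overlapped at the bottom. In SCI + SCS cords the order was Stmn2 (88.6 ± 18.1 FPKM), Gap43 (50.2 ± 2.87 FPKM), Basp1 (44.0 ± 5.23 FPKM), Jun (26.8 ± 3.23 FPKM), Atf3 (13.3 ± 1.86 FPKM), Klf6 (9.77 ± 1.11 FPKM), Sox11 (0.118 ± 0.0028 FPKM) and Sprr1a (0.0315 ± 0.0546 FPKM). There Gap43 and Basp1 overlapped, while Basp1 and Jun did not.

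Profiles over the 9 libraries were compared by the root mean square difference of centred log2 CPM, in which a smaller value is a closer match. Among the genes with a mean of at least 1 CPM, Jun and Klf6 were the closest pair of regeneration-associated genes (0.158), followed by Gap43 and Basp1 (0.215), Basp1 and Stmn2 (0.438) and Gap43 and Stmn2 (0.588). Atf3 and Jun were 1.001 apart, and Atf3 and Stmn2 were the farthest pair (2.25). Among 14324 genes, the nearest to Atf3 were Cyba, which encodes a subunit of the phagocyte NADPH oxidase (0.109), and Ifi30, which encodes a lysosomal thiol reductase (0.178). The nearest to Jun were Adam15 (0.0742) and Traf3ip2 (0.0744), and to Klf6 Ephb4 (0.056) and Txndc5 (0.0561). The nearest to Gap43 were Insyn1 (0.104) and Zfp583 (0.107), to Basp1 Tmem198 (0.0638) and Ttll1 (0.0784), and to Stmn2 Epb41l3 (0.0918) and Panx2 (0.0984).

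Other genes of the regeneration programme were then counted in 7 lists, for SCI against Sham first. Among 12 regeneration transcription factors, 5 rose, 3 fell and 4 did not pass, with a median log2FC of 0.15. Cebpd and Cebpb, which encode C/EBP factors of the injury and acute-phase response, rose from 15.7 ± 5.79 to 83.0 ± 19.5 CPM (log2FC 2.39) and from 12.5 ± 5.42 to 53.2 ± 8.29 CPM (log2FC 2.08), respectively (mean ± SD, n = 3). Klf7, a Klf6 relative that promotes axon growth, fell from 7.24 ± 2.61 to 3.50 ± 0.235 CPM (log2FC -1.07), and Hif1a, which encodes the hypoxia-inducible factor, fell from 72.7 ± 4.58 to 50.1 ± 4.32 CPM (log2FC -0.56). Among 6 growth-restraining genes, 1 rose and 1 fell. Socs3, an inhibitor of cytokine signalling through STAT3, rose from 4.38 ± 3.05 to 27.1 ± 7.85 CPM (log2FC 2.61), and Klf9 fell from 29.6 ± 7.10 to 14.8 ± 4.96 CPM (log2FC -1.02).

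Relatives of the transcription factors followed Atf3, Jun and Klf6 in part. Of 17 AP-1 and ATF partners, 16 were tested, 8 rose and 1 fell, with a median log2FC of 0.53. Batf, which encodes an AP-1 protein of immune cells, rose from 0.189 ± 0.0687 to 2.22 ± 0.375 CPM (log2FC 3.51), and Batf3 from 0.495 ± 0.275 to 2.07 ± 0.294 CPM (log2FC 2.04). Atf2, whose protein binds the CRE, fell from 63.5 ± 6.04 to 44.8 ± 2.14 CPM (log2FC -0.52). Junb was listed at 0 in every library. Of 16 other KLF family genes, 13 were tested, 5 rose and 3 fell. Klf4, Klf7, Klf9 and Klf16 are also in the lists above, so that the falls of Klf7 and Klf9 were counted there too. Klf10 rose from 10.6 ± 2.18 to 21.7 ± 6.77 CPM (log2FC 1.02) and Klf3 from 28.0 ± 5.11 to 46.2 ± 5.92 CPM (log2FC 0.70). The largest fall was that of Klf13, from 19.8 ± 4.39 to 5.36 ± 1.99 CPM (log2FC -1.91).

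The kinases and cytoskeleton genes mostly fell. Of 9 injury-signalling kinases and scaffolds of the DLK and JNK pathway, which phosphorylates Jun, none rose, 8 fell and 1 did not pass, with a median log2FC of -1.11. Mapk10, the JNK isoform most restricted to neurons, fell from 55.3 ± 10.8 to 13.2 ± 3.31 CPM (log2FC -2.09), and Map3k13, which encodes the LZK kinase, from 2.23 ± 0.502 to 0.728 ± 0.238 CPM (log2FC -1.63). Of 28 growth cone and cytoskeleton genes, 25 symbols were present and tested, 2 rose and 16 fell, with a median log2FC of -1.12. Cntn2, which encodes an axonal adhesion protein, fell from 90.0 ± 16.6 to 16.3 ± 3.65 CPM (log2FC -2.48), and Map1b, which encodes a microtubule-associated protein of growing axons, from 1080 ± 278 to 220 ± 47.8 CPM (log2FC -2.31). The genes that rose were Tubb6, a beta-tubulin made outside neurons too, from 19.7 ± 7.96 to 83.3 ± 18.6 CPM (log2FC 2.07), and Marcks, which encodes a membrane protein akin to those of Gap43 and Basp1, from 155 ± 22.9 to 267 ± 19.0 CPM (log2FC 0.77).

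Among 20 injury-induced genes of axotomised neurons, 8 rose, 5 fell and 7 did not pass, with a median log2FC of 0.33. Plaur, the urokinase receptor gene, rose from 1.34 ± 1.26 to 11.8 ± 1.93 CPM (log2FC 3.10), and Lif, a cytokine gene, from 0.281 ± 0.136 to 1.41 ± 0.788 CPM (log2FC 2.29). The neuropeptide genes Vip and Nts fell from 5.40 ± 1.41 to 1.59 ± 0.805 CPM (log2FC -1.78) and from 15.2 ± 2.31 to 6.31 ± 0.708 CPM (log2FC -1.29). Apart from the kinase list, in which none rose, each list held genes in both directions. The share over all rows was 24.3% that rose and 25.0% that fell. The kinase and cytoskeleton lists had the lowest medians. They moved with the lower sums of neuron and oligodendrocyte markers, whose part was not tested.

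Between SCI + SCS and SCI cords, no gene of the 7 lists passed edgeR's quasi-likelihood test after Benjamini-Hochberg adjustment. With edgeR's p left unadjusted, 15 of 25 growth cone and cytoskeleton genes and 6 of 9 kinases were under 0.05, with medians of 0.39 and 0.30 (log2FC), beside a median of -0.01 and a share under 0.05 of 24.2% over all rows. The corresponding numbers were 2 of 12 for regeneration transcription factors, 1 of 6 for growth-restraining genes, 3 of 16 for AP-1 and ATF partners and 1 of 13 for the KLF family, all under that share, and 6 of 19 for injury-induced genes. DESeq2 called 11 of the growth cone and cytoskeleton genes, 4 of the kinases, 5 of the injury-induced genes, none of the KLF family and 1 in each of the other lists, beside 16.1% of all rows that it tested. Map1b was 411 ± 77.7 CPM in SCI + SCS cords and Cntn2 30.2 ± 5.98 CPM, both without overlap with the SCI group. Cebpb was 22.1 ± 3.51 CPM, also without overlap with the SCI group (log2FC -1.26, edgeR adjusted p = 0.0719). Compared with the Sham group, 12 of 25 growth cone and cytoskeleton genes and 7 of 9 kinases fell in SCI + SCS cords, and 4 of 15 tested AP-1 and ATF partners rose, beside 16.2% of all rows in each direction. The numbers that rose and fell were 2 and 1 of 12 for regeneration transcription factors, 1 and 1 of 6 for growth-restraining genes, 2 and 2 of 14 for the KLF family, and 5 and 2 of 20 for injury-induced genes.

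**Figure D5:**
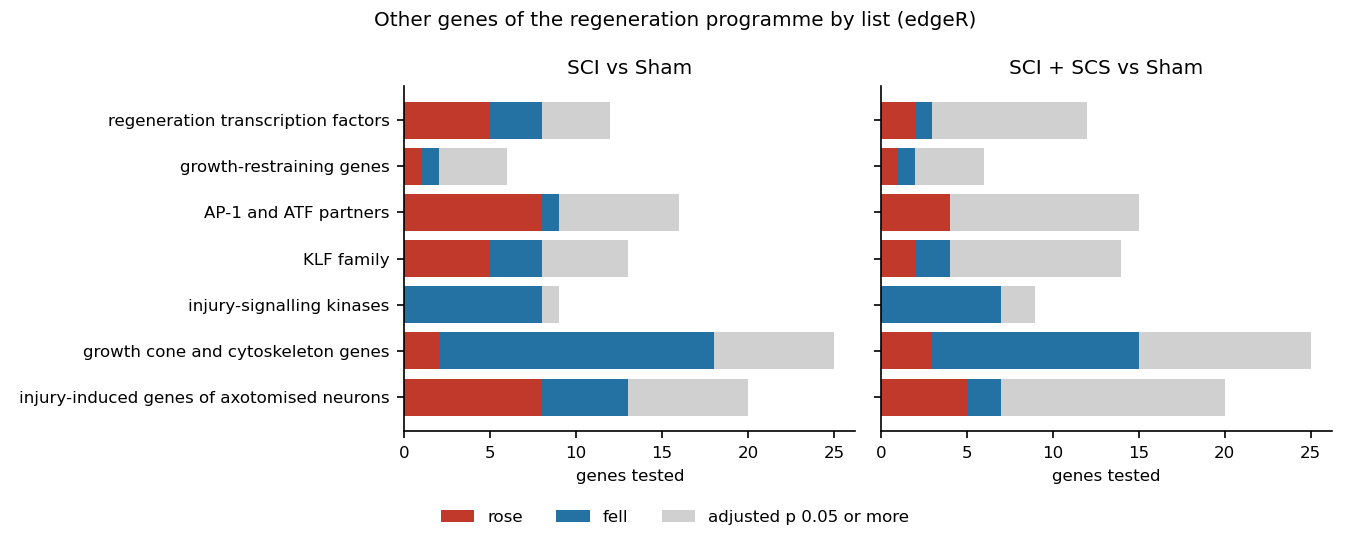
Numbers of genes of each list that rose, fell or had an adjusted p of 0.05 or more (edgeR), for SCI against Sham and SCI + SCS against Sham. In SCI cords 16 of 25 growth cone and cytoskeleton genes and 8 of 9 kinases fell, and in SCI + SCS cords 12 of 25 and 7 of 9.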

How the data were processed

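RNA was sequenced from 9 rat spinal cords at 35 dpi (Sham, SCI and SCI + SCS, 3 each), and libraries were assigned by the condition and replicate number in their labels. The submitters' processing notes name fastp 0.23.2, HISAT2 2.2.1 and mRatBN7.2, and the counting program is not given in the sources used here. The authors deposited raw counts per gene, and FPKM values, which scale the counts to the length of the gene and to the depth of the library. Groups were compared on the counts, over the 6 libraries concerned and without covariates, with edgeR 4.0.16 in R 4.3.3 (quasi-likelihood test, TMM, default filter on low counts) and Benjamini-Hochberg adjustment. The study's methods name DESeq2, which was run as an alternative (1.42.0). Other alternatives were filters, size factors, all 9 libraries in one fit, a replicate block and leaving out each library. Also run were limma 3.58.1 on log2(FPKM + 1) and log2(FPKM + 0.1), summing the rows of an identifier, and removing the muscle and adipocyte marker genes. The standard error of a log2FC was derived from the F statistic of its test (its absolute value over the root of F). Ratios to neuron markers were compared by exact two-sided permutation tests.

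The 8 genes and all lists were chosen with earlier results of these data known. Named in each list were the 2 genes with the largest positive and the 2 with the largest negative log2FC for SCI against Sham at an adjusted p under 0.05, any called for SCI + SCS against SCI, and, for each regeneration-associated gene with a mean of at least 1 CPM, the 2 nearest profiles (log2 of CPM + 0.5, over 9 libraries). Cebpb was given again after its values were seen. The fits were tested on simulated data before use. Replicates were separate rats. Reads were copied by PCR and carried no molecular identifiers, so they are not independent and a floor of 3 counts covers counting error only. The counts were not stated to use strand, and no other row with counts overlapped Gap43.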

Additional observations from a re-analysis of the deposited data

How the results depend on the processing

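Of the log2FC values from the alternatives, 115 of 119 kept their direction and side of the threshold for SCI against Sham, 114 of 118 for SCI + SCS against SCI and 108 of 119 for SCI + SCS against Sham. The one reversed value was that of Sox11 for SCI + SCS against SCI, -0.0195 without SCI replicate 2, in a range of -0.0195 to 0.4555 when single libraries were left out. Of the regeneration-associated genes, 5 to 6 were called for SCI against Sham when single libraries were left out, 0 in each case for SCI + SCS against SCI, and 2 to 6 for SCI + SCS against Sham. For SCI + SCS against SCI, DESeq2 called 3 of them and 2603 of all genes, against 1 in edgeR. The number of all genes was 0 with at least 10 counts in every library, with the replicate block or with rows of an identifier summed, 31 with limma on log2(FPKM + 1), 19 on log2(FPKM + 0.1) and 0 to 169 without single libraries. For SCI + SCS against Sham, where 5710 genes were called, leaving out single libraries gave 2149 to 6637. Same-numbered libraries came from different rats, and their deviations correlated at 0.24, -0.06 and 0.20 for SCI and Sham, -0.17, 0.00 and -0.20 for SCI + SCS and SCI, and -0.33, 0.02 and -0.31 for SCI + SCS and Sham, so that the numbers did not pair them. With the replicate block, the regeneration-associated genes called were 6, 0 and 1 in the order SCI against Sham, SCI + SCS against SCI and SCI + SCS against Sham, and 1259 of all genes in the last, where Atf3 passed (edgeR adjusted p = 0.0414) and Jun (0.0549) and Stmn2 (0.103) did not. Relative to neuron markers, the number without overlap between SCI + SCS and SCI was 7 with Rbfox3, Elavl3 and Elavl4 alone and 3 to 5 without single libraries. The cause of these differences was not tested. Sox11 and Sprr1a had at most 43 and 20 counts in a library, and the part of depth in their results was not tested.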
